A study of Mus musculus with 8 samples.

Results

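The fibroblast growth factor (FGF) receptors and ligands on the array are 10 genes, of 30458 gene names in all. The receptors are Fgfr1, Fgfr2, Fgfr3, Fgfr4 and Fgfrl1, and the ligands are Fgf1, Fgf2, Fgf7, Fgf18 and Fgf21. Every probe that the array files name for 1 of these genes was taken, each on its own, which gave 19 of 39429 probes, 11 for receptors and 8 for ligands. The genes were chosen from the measured difference between the 2 groups of cells described next, with its values known. The differences of the members are therefore given as a description with their standard errors and without a p-value, and the choice rests on no cutoff that separates members from other genes.

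The cell line was NMuMG-NT2197, which derives from NMuMG, an epithelial line of the mouse mammary gland. Both groups had been transfected with the same pMSCV/hygro vector. In the wild-type group of 4 samples the vector held the cDNA of unmutated ShcA, an adaptor recruited to phosphorylated receptor tyrosine kinases. In the R175Q group, also of 4, an arginine of that protein was replaced by glutamine, within the PTB domain, which binds phosphotyrosine. The labels name no other allele or agent, do not say whether a group was 1 clone or a pool, and do not say whether replicates were separate cultures, so errors measure only the spread between these samples. Each sample was hybridized in Cy3 against a common reference RNA in Cy5, without exchange of dyes. A level below is the log2 ratio of sample over reference for 1 probe, a difference is R175Q less wild type on that scale, and the error of a difference is its standard error (SE, n = 4 per group).

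FGFs are secreted proteins that bind receptor tyrosine kinases on the cell surface together with heparan sulfate, a sugar chain of the cell coat and matrix. Bound receptors phosphorylate docking proteins such as Frs2 and, through Grb2 and Shc adaptors, activate the Ras and MAP kinase cascade, which in turn induces Sprouty and Dusp feedback inhibitors and Etv transcription factors. In the mammary gland, Fgfr1 and Fgfr2 act in epithelial growth and branching, and alternative splicing of Fgfr1, Fgfr2 and Fgfr3 sets which ligands each receptor binds.

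The probes are 60 bases long, and their positions, given by the files in mm9, decide what each can report. The 3 Fgfr1 probes lie in order on the plus strand of chromosome 8. A_55_P1967022 covers chr8:26684061-26684120, A_55_P2057777 covers chr8:26685072-26685131, which begins after a gap of 951 bases, and A_55_P1967015 covers chr8:26685820-26685879, after a further gap of 688 bases. The first of them is shown whole, 5′ to 3′, above an Fgfr4 probe at chr13:55269212-55269271 on the plus strand, because the receptors are a family of related genes and a probe could in principle bind a relative. Capitals mark the 35 of 58 aligned bases that are equal.
Fgfr1 A_55_P1967022: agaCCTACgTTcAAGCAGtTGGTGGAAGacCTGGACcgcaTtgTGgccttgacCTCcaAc
Fgfr4 A_55_P2121871: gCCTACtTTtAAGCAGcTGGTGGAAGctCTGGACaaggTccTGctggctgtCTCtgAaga
The Fgfr4 probe was not well above background on any of the 8 arrays, whereas the Fgfr1 probe was on all 8. The Fgfr1 probe was not aligned with the probes of Fgfr2 or Fgfr3, and whether it binds a relative was not tested.

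The other Fgfr1 probes are rich in 1 base. The 30-base stretches below hold more of it than the whole probes do, with runs of 3 or more of the same base in capitals. They begin at base 31 of A_55_P2057777 and at base 16 of A_55_P1967015.
Fgfr1 A_55_P2057777: tattAAAAAcAAAcgaacagAAAgAAAAAA
Fgfr1 A_55_P1967015: gTTTTTgTTTTTTgTTTgTTTgTTTggttg
Over its whole length A_55_P2057777 is 46.7% A, and 2.89% of the probes on the array hold as much of a single base. A_55_P1967015 is 60% T, which 0.132% of the probes reach, and it has a run of 32 bases in common with a probe for another gene name, 0610007P08Rik. No other member probe had 30 bases in common with a probe of another gene.

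The Fgfr2 probes lie on the minus strand of chromosome 7 and overlap by 42 bases, so they are not separate views of the transcript. Their first 30 bases are shown with the 12 bases that both stretches hold in capitals.
Fgfr2 A_55_P2094881: atgccttatgaaccctgtCTGCCTCAGTAT
Fgfr2 A_51_P432403: CTGCCTCAGTATccacacataaacggcagt
They cover chr7:137307473-137307532 and chr7:137307455-137307514. The Fgf18 probes overlap too, by 26 bases, at chr11:33017474-33017533 and chr11:33017440-33017499 on the minus strand. Fgfr3 A_65_P06147 and Fgf2 A_51_P399845 span 235 and 47220 bases of the genome with 60 bases of probe, so each crosses a splice junction and lies in exons. Whether the other probes lie in a coding part, an intron or a UTR was not determined, since no gene model of mm9 was used here, and no probe was assigned to a splice form.

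The share of spots well above background was 53.7% to 63.0% per array for the Cy3 samples and 61.1% to 71.7% for the Cy5 reference, without saturated spots. Shc1, the gene of ShcA, had levels of 0.81, 0.91, 0.98 and 1.30 in R175Q replicates 1 to 4 and of 0.99, 1.08, 1.16 and 1.20 in wild-type replicates 1 to 4. The groups overlapped and differed by −0.11 ± 0.10 (limma, adjusted p = 0.525), and an expression probe does not read the substitution, so this does not check which form a sample carried. Of 9 epithelial markers, 7 were well above background on all 8 arrays and 1, Cldn3, on none. Of 9 mesenchymal or fibroblast markers, 7 were well above background on all 8 arrays and 2, Lum and Fap, on none. Wild-type replicate 3 lay apart from the other wild-type arrays at 4 of the 13 member probes tested, those of Fgfr1 (A_55_P1967022), Fgfrl1, Fgf1 (A_52_P538673) and Fgf7. Differences without it are given beside those members.

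Of the 19 member probes, 13 exceeded background in Cy3 on 4 or more arrays and were fitted, and 6 were not. The 13 stand for 7 genes, since no probe of Fgfr4, Fgf2 or Fgf21 passed. In the fit over all 22849 such probes, 4 member probes had an adjusted p under 0.05 and were higher in R175Q, and 2 were lower, where 18.6% of all fitted probes met this threshold in either direction (8.92% higher and 9.73% lower). Nothing is read from the members' share, because this contrast chose them. At the same probes the difference was at least 1.5-fold, which 4.28% of all fitted probes reached. The groups did not overlap at 7 of the 13 probes, against 23.4% of all. The 6 were the probes of Fgfr1 and Fgfr2, 2 each, which were higher in R175Q, and both Fgf1 probes, which were lower.

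**Figure D1:**
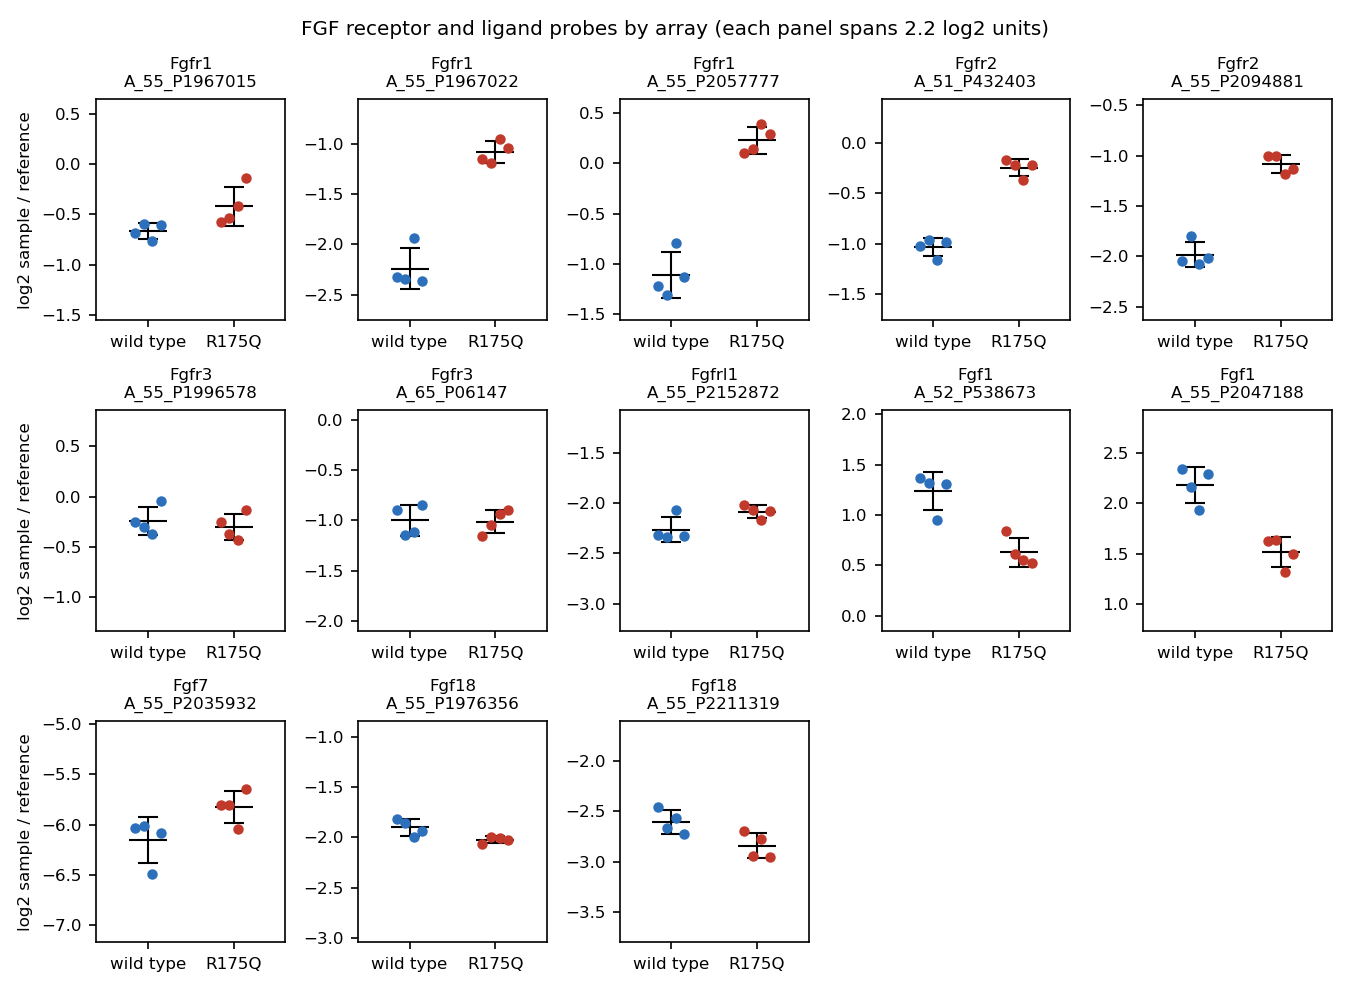
Log2 ratio of sample over reference (vertical axes, each spanning 2.2 log2 units) for the 13 fitted probes in the 4 wild-type and 4 R175Q samples; each point is 1 array, the long bar is the group mean and the short bars are 1 SD. The groups lie apart at 2 Fgfr1 probes, both Fgfr2 probes and both Fgf1 probes, and nearer each other at the rest, among them the third Fgfr1 probe with a difference of 0.24.

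In these ratios Fgfr1, a receptor for many FGFs, gave the largest differences of the family. At A_55_P2057777 its level was 0.10, 0.15, 0.39 and 0.29 in R175Q replicates 1 to 4 and −1.21, −1.31, −0.79 and −1.13 in wild-type replicates 1 to 4. Every R175Q sample lay above every wild-type sample, and above the reference, while every wild-type sample lay below it. The difference was 1.34 ± 0.11, or 2.53-fold. Without wild-type replicate 3, which was the highest of its group, it was 1.45.

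At Fgfr1 A_55_P1967022 the level was −1.16, −1.20, −0.95 and −1.04 in the R175Q samples and −2.32, −2.35, −1.94 and −2.36 in the wild-type samples. Again the groups did not overlap, and wild-type replicate 3 was the highest of its group. The difference was 1.16 ± 0.10, or 2.23-fold, and 1.26 without that array. The deviations of the 8 arrays from their group means ran together at these probes, with a Pearson r of 0.94; the 2 probes share the arrays, the samples and the gene.

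The third Fgfr1 probe, A_55_P1967015, gave a much smaller difference. Its level was −0.58, −0.53, −0.42 and −0.15 in the R175Q samples and −0.69, −0.59, −0.76 and −0.61 in the wild-type samples. The groups did not overlap, but the lowest R175Q sample, replicate 1, and the highest wild-type sample, replicate 2, were nearly equal, and replicate 4 stood highest among the R175Q samples. The difference was 0.24 ± 0.09 and its adjusted p did not pass 0.05. Without R175Q replicate 4 it was 0.15. In the authors' deposited value table it was 0.30 ± 0.08 and did pass. It was smaller than that at A_55_P2057777 by 1.10, and the deviations from the group means at these probes were not related (r = 0.0029 over 8 arrays). It was also dimmer, with a background-subtracted Cy3 intensity of 53.1 to 118.5 against 1363 to 6016 at A_55_P2057777, a difference between probes that says nothing of transcript level. The 0610007P08Rik probe that holds the same 32 bases differed by 0.05 ± 0.08 (adjusted p = 0.744). What the T-rich probe binds was not tested.

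Fgfr2, the receptor for Fgf7 and Fgf10 in its epithelial splice form, was also higher in R175Q at both of its probes. A_51_P432403 is printed as 10 spots, whose SD within an array was 0.049 to 0.10, and its level was −0.17, −0.22, −0.37 and −0.22 in the R175Q samples and −1.02, −0.96, −1.16 and −0.98 in the wild-type samples. All R175Q samples lay above all wild-type samples, with replicate 3 the lowest in each group. The difference was 0.79 ± 0.07, or 1.73-fold. At A_55_P2094881 the level was −1.0, −1.01, −1.18 and −1.14 in the R175Q samples and −2.04, −1.79, −2.07 and −2.02 in the wild-type samples, again without overlap. That difference was 0.90 ± 0.08, or 1.87-fold. Both probes stayed below the reference in every sample.

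Fgfr3, a receptor known for restraining bone growth, did not pass the threshold at either fitted probe. At A_55_P1996578 levels ran from −0.43 to −0.14 in R175Q and from −0.37 to −0.05 in wild type, and the difference was −0.06 ± 0.09. At A_65_P06147, the probe across a splice junction, levels ran from −1.16 to −0.90 and from −1.14 to −0.85, and the difference was −0.01 ± 0.09. The groups overlapped at both. That junction probe was well above background on only 4 arrays, 2 in each group, and the third Fgfr3 probe, A_55_P2150422, on none. Fgfrl1, a receptor-like protein that lacks the kinase domain, had levels of −2.17 to −2.02 in R175Q and −2.33 to −2.07 in wild type, where replicate 3 alone reached −2.07 and the others −2.32 or less. Its difference was 0.18 ± 0.07, short of the threshold, and 0.24 without wild-type replicate 3, when it passed.

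Neither Fgfr4 probe was well above background on any array. Their background-subtracted Cy3 intensity was 8.16 to 31.1 and 20.9 to 39.2, beside medians of 13.1 to 22.7 for the negative control spots of each array. No difference is given for them.

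Among the ligands Fgf1, which binds all of the FGF receptor kinases, stood above the reference in every sample and was lower in R175Q. At A_55_P2047188 its level was 1.63, 1.63, 1.32 and 1.49 in the R175Q samples and 2.34, 2.17, 1.94 and 2.29 in the wild-type samples. The groups did not overlap, and replicate 3 was the lowest in each. The difference was −0.67 ± 0.10, or 1.59-fold, and −0.75 without wild-type replicate 3. At A_52_P538673 the level was 0.84, 0.61, 0.55 and 0.52 in the R175Q samples and 1.36, 1.31, 0.95 and 1.31 in the wild-type samples. The lowest wild-type sample, replicate 3, still lay above every R175Q sample. The difference was −0.60 ± 0.10, or 1.52-fold, and −0.70 without that array. This probe was well above background on 7 of the 8 arrays. The 2 probes lie on the minus strand at chr18:38998337-38998396 and chr18:39018274-39018333, 19877 bases apart, and their deviations from the group means had an r of 0.82 over the 8 arrays.

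Fgf7, a ligand of the epithelial form of Fgfr2 that mesenchymal cells usually make, was far below the reference, by 71.3-fold in wild type and 56.7-fold in R175Q. Its levels were −6.04 to −5.65 in R175Q and −6.49 to −6.01 in wild type and overlapped. The difference was 0.33 ± 0.12, short of the threshold, and 0.22 without wild-type replicate 3, the lowest sample. Fgf18, a ligand with roles in bone and lung, was below the reference at both probes. Its differences were −0.12 ± 0.06 at A_55_P1976356 and −0.24 ± 0.08 at A_55_P2211319, with overlapping groups and without passing the threshold. A_55_P1976356 was dim, with a background-subtracted Cy3 intensity of 48.6 to 64.7. It was well above background on 2 R175Q and 4 wild-type arrays.

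Fgf2, or basic FGF, a ligand of several of the receptors, was not well above background on any array at either probe, 1 of them printed as 10 spots and crossing a splice junction. Its background-subtracted Cy3 intensity was 15.6 to 23.9 and 9.78 to 36.7. Fgf21, a hormone-like FGF that needs the coreceptor Klb, was well above background on 1 array, that of a wild-type sample, with intensities of 9.0 to 39.2 over the 8. Its probe is 63.3% T, more than nearly all probes on the array (0.0634% hold as much of 1 base).

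**Figure D2:**
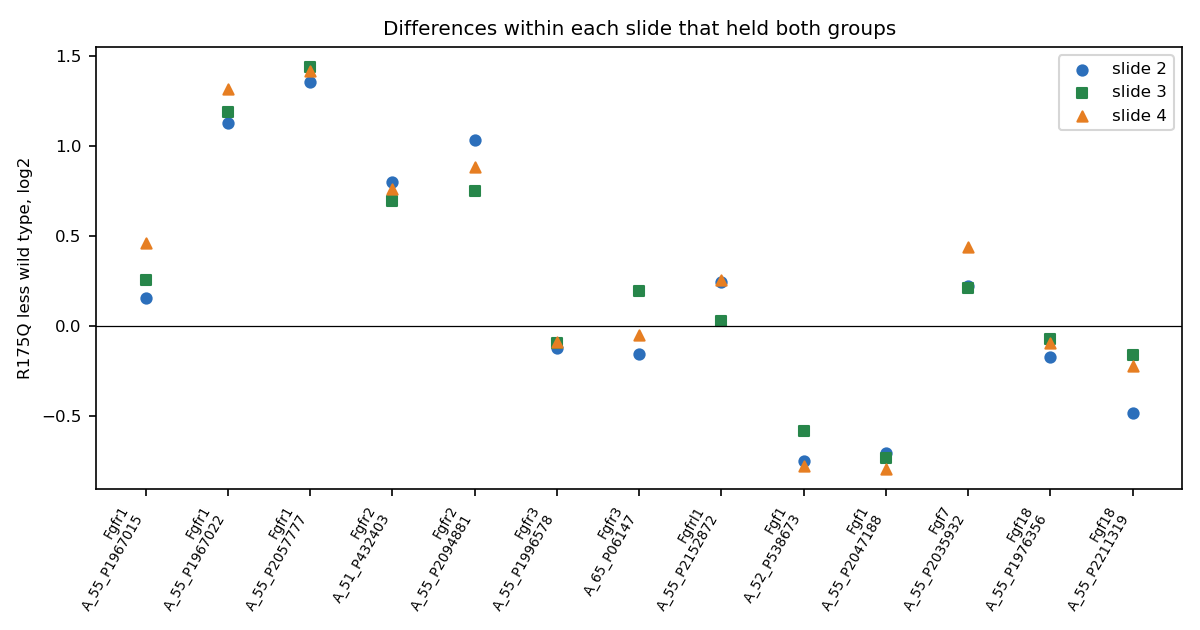
Difference R175Q less wild type (vertical axis, log2) at each fitted probe within the 3 slides that held both groups; each marker is 1 slide, with 1 R175Q array against 1 wild-type array, or 2 on slide 3. At the Fgfr1 probe A_55_P2057777 the slides gave 1.36, 1.44 and 1.42. At the 6 probes that passed the threshold the groups did not overlap, which fixes the direction within every slide beforehand.

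The arrays came from 4 slides, of which slide 1 held only R175Q replicate 1, so differences were also taken within slides 2, 3 and 4. Fgfr1 differed by 1.13 to 1.32 at A_55_P1967022 and by 0.16 to 0.46 at A_55_P1967015. Fgfr2 differed by 0.69 to 0.80 at A_51_P432403 and by 0.75 to 1.04 at A_55_P2094881. Fgf1 differed by −0.80 to −0.71 at A_55_P2047188 and by −0.78 to −0.59 at A_52_P538673. With slide as a block, which takes nothing from R175Q replicate 1, the same 6 probes passed (13.8% of all fitted probes did) and Fgfr1 A_55_P2057777 differed by 1.41 ± 0.12.

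A ratio can also move through its reference, which should be the same RNA on every array. At the Fgfr1 probes the Cy5 signal alone differed between the groups by 0.05 ± 0.08 and 0.12 ± 0.07 (A_55_P2057777 and A_55_P1967022), against 1.39 ± 0.11 and 1.31 ± 0.13 in Cy3. At the Fgfr2 probes Cy5 differed by 0.20 ± 0.07 and 0.21 ± 0.10, against 1.32 ± 0.11 and 1.27 ± 0.13 in Cy3. At Fgf1 it differed by −0.30 ± 0.09 and −0.44 ± 0.23, against −0.93 ± 0.15 and −1.26 ± 0.29. The reference therefore moved in the direction of the sample at Fgfr2 and Fgf1, by less than the sample did. The part of this in the ratios was not tested. These single-channel values are the scanner's processed signals scaled to the 75th percentile of each array, with neither the offset nor the loess of the ratios. They therefore do not subtract to the differences given above. At Fgfr2 A_51_P432403 that difference was 0.79, and the scanner's processed ratio gave 1.12 ± 0.07.

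**Figure D3:**
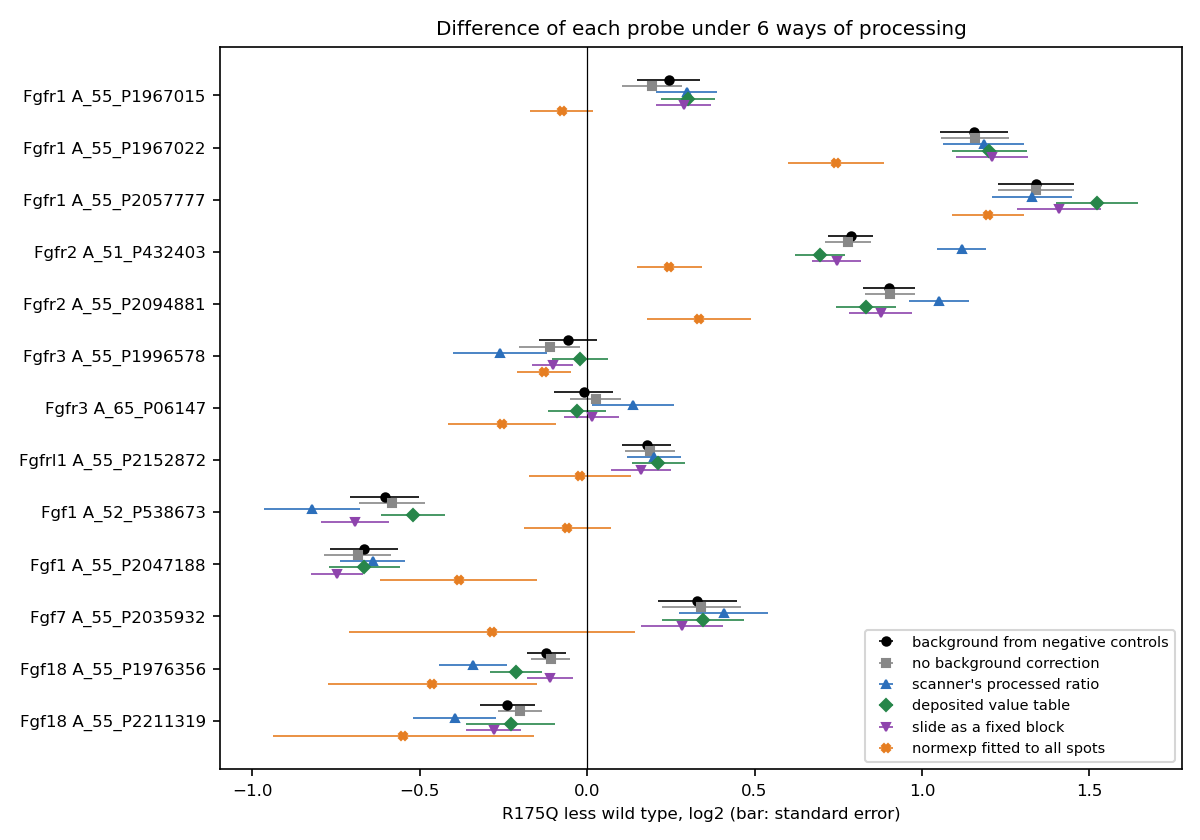
Difference R175Q less wild type (horizontal axis, log2, bars 1 SE, n = 4 per group) at the 13 fitted probes under 6 ways of processing. Normexp fitted to all spots left 1.20 at Fgfr1 A_55_P2057777 and 0.25 at Fgfr2 A_51_P432403.

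The number of these differences that passed changed with the background correction. The values above take the background from the negative control spots. When the correction was fitted to all spots, it placed the Cy3 background between −690 and −0.37 depending on the array, below the negative control medians of 13.1 to 22.7. Under it both Fgfr1 probes passed, with 1.20 ± 0.11 and 0.74 ± 0.14, where 3.99% of all fitted probes did. Fgfr2 then differed by 0.25 ± 0.10 and 0.33 ± 0.15 and Fgf1 by −0.38 ± 0.23 and −0.06 ± 0.13, all short of the threshold, and the third Fgfr1 probe by −0.08 ± 0.10. Fgf7 and Fgfrl1 changed sign as well, to −0.28 ± 0.43 and −0.02 ± 0.15. With slide as a block added, no member probe passed in limma, and 2 of 13 had an unadjusted p under 0.05, where 1 and 2624 of all 22849 did. The Fgfr1 differences were then 1.25 ± 0.13 and 0.76 ± 0.19, nearly those of the same background without the block. Other processing moved sizes both ways. Fgfr2 differed by 1.12 ± 0.07 and 1.05 ± 0.09 in the scanner's processed ratio, and by 0.69 ± 0.08 and 0.83 ± 0.09 in the deposited value table. With an offset of 20 it differed by 0.93 ± 0.07 and 1.00 ± 0.08. Fgf1 A_52_P538673 differed by −0.82 ± 0.14 in the scanner's processed ratio and by −0.52 ± 0.10 in the deposited value table.

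The other genes of the pathway did not share 1 direction. Of their 87 fitted probes 26 passed, where 18.6% of all fitted probes did, and with the all-spot background 6 did, where 3.99% of all did. Those 6 were the probes of Gpc1, Hs3st1, Sulf2 and Extl3 and 1 probe each of Agrn and Etv4. The pathway lists were chosen with earlier results of these data known, and up to 4 genes of each were named by lowest p. The adjusted p-values given for them, taken over all fitted probes, are therefore a description and test no list. Of the fitted probes for other FGF ligands, 3 of 8 fell and the other 5 did not pass, with a median difference of −0.08 beside −0.02 over all fitted probes. Fgf13, an intracellular FGF that binds sodium channels rather than receptors, had 2 of the 3. The larger change was at A_55_P2139809, with levels of 2.22, 2.23, 2.32 and 2.23 in R175Q and 3.11, 2.96, 2.85 and 3.16 in wild type. It fell by 0.77 ± 0.07 (adjusted p = 8.47e-05), and by 0.25 with the all-spot background, when it did not pass. Fgf6, a muscle FGF, differed by −0.25 ± 0.07 (adjusted p = 0.0275) and lost its call without any 1 of 5 arrays, R175Q replicates 2, 3 and 4 and wild-type replicates 1 and 2.

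Of 9 probes for FGF coreceptors and binding proteins, 2 rose and 1 fell, with a median of 0.03. Flrt2, a membrane protein that binds FGF receptors, rose by 0.47 ± 0.06 (adjusted p = 0.000361) at 1 probe and differed by 0.03 ± 0.08 at another. Il17rd, an inhibitor of FGF signalling also called Sef, rose by 0.38 ± 0.06 (adjusted p = 0.00127), but differed by −0.21 ± 0.33 with the all-spot background. Fgfbp1, a carrier that releases FGFs from the matrix, had overlapping groups and differed by −0.40 ± 0.12 (adjusted p = 0.0476), a call that was kept without R175Q replicate 1 or wild-type replicate 2 and lost without any 1 of the other 6 arrays.

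Heparan sulfate proteoglycans, the cell surface and matrix proteins that carry the sugar chains, split with 3 of 10 probes higher and 2 lower (median −0.11). Gpc1, a glypican anchored in the membrane, had levels of 0.76, 0.79, 0.93 and 0.95 in R175Q and −0.07, 0.06, 0.23 and 0.01 in wild type. It rose by 0.80 ± 0.08 (adjusted p = 8.68e-05). Agrn, a basement membrane proteoglycan, fell by 0.55 ± 0.06 (adjusted p = 0.000181) at 1 probe and differed by −0.20 ± 0.09 (adjusted p = 0.17) at the other. Hspg2, or perlecan, differed by −0.27 ± 0.07 (adjusted p = 0.0199) at 1 of its probes and the syndecan Sdc3 by 0.34 ± 0.09 (adjusted p = 0.0205). Each lost its call without 1 of several arrays, Hspg2 without R175Q replicate 2 or 4 or wild-type replicate 1, and Sdc3 without R175Q replicate 1, 2 or 4 or wild-type replicate 1 and with slide as a block (adjusted p = 0.0568).

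The enzymes that build and trim heparan sulfate gave 4 higher and 1 lower of 17 probes (median 0.11), and the lower one was the largest change of any pathway gene named here. Hs3st1, which adds 3-O-sulfate, had levels of 0.36, 0.37, 0.44 and 0.31 in R175Q and 1.69, 1.71, 1.83 and 1.84 in wild type. It fell by 1.40 ± 0.06, or 2.63-fold (adjusted p = 1.06e-06). Sulf2, an extracellular enzyme that removes 6-O-sulfate, had levels of 0.69, 0.68, 0.62 and 0.74 in R175Q and −0.17, −0.23, −0.20 and −0.17 in wild type. It rose by 0.87 ± 0.05 (adjusted p = 4.5e-06). Hpse, the heparanase that cuts the chains, rose at both of its probes, by 0.80 ± 0.11 and 0.86 ± 0.13 (adjusted p = 0.000749 and 0.00138), and by 0.29 and 0.22 with the all-spot background, when neither passed. Extl3, which starts the chains, rose by 0.35 ± 0.05 (adjusted p = 0.00115).

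Of the adaptors that link FGF receptors to Ras, 1 of 15 probes fell and the other 14 did not pass (median −0.11). This was Gab1, a docking protein, which fell by 0.34 ± 0.07 (adjusted p = 0.00749). The lone probe with a larger value was that of the exchange factor Sos2, at 1.38 ± 0.96 (adjusted p = 0.379), and its slide-blocked difference was 0.15. Sos2 was named after its value was seen.

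Genes that FGF signalling induces or that feed back on it gave 4 higher and 2 lower of 18 probes (median 0.10), and the Sprouty inhibitors went opposite ways. Spry2 rose by 0.49 ± 0.07 (adjusted p = 0.00074) and Spry1 fell by 0.79 ± 0.11 (adjusted p = 0.000743). Levels of Spry1 were 0.43, 0.51, 0.73 and 0.69 in R175Q and 1.32, 1.12, 1.52 and 1.55 in wild type, without overlap. Of the Etv transcription factors, Etv1 rose by 0.90 ± 0.10 (adjusted p = 0.000156) from a level far below the reference, −5.39 to −4.92 in wild type and −4.40 to −4.26 in R175Q. Etv4 rose by 0.34 ± 0.05 (adjusted p = 0.00157) and by 0.23 ± 0.05 (adjusted p = 0.0132) at its 2 probes, the second without passing when slide was a block (adjusted p = 0.066). With the all-spot background Spry2 and Etv1 differed by 0.10 and 0.37 and did not pass, and Spry1 differed by −0.54 (adjusted p = 0.0538).

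Regulators of Fgfr2 splicing gave 2 higher and 1 lower of 10 probes (median 0.09). Esrp2, an epithelial splicing factor that favours the epithelial form of Fgfr2, had levels of 2.05, 1.93, 1.85 and 1.81 in R175Q and 2.78, 2.63, 2.64 and 2.66 in wild type. It fell by 0.76 ± 0.07 (adjusted p = 5.02e-05), and by 0.48 with the all-spot background, when it did not pass. Its relative Esrp1 differed by 0.12 ± 0.11 (adjusted p = 0.525) and was named after its value was seen. Mbnl2, another splicing factor, passed at 1 of its 3 fitted probes, with 0.41 ± 0.10 (adjusted p = 0.0165), a call lost without wild-type replicate 1. The other two gave 0.13 ± 0.11 and 0.06 ± 0.11 (adjusted p = 0.461 and 0.771). Rbfox2 passed at 1 of its 2 fitted probes, with −0.02 ± 0.07 (adjusted p = 0.875) at the other. The probe that passed differed by 0.22 ± 0.06 (adjusted p = 0.0344), a call lost without any 1 of the 4 R175Q arrays or wild-type replicate 2, and with slide as a block (adjusted p = 0.0892). Which splice forms of Fgfr2 its overlapping probes read was not determined.

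**Figure D4:**
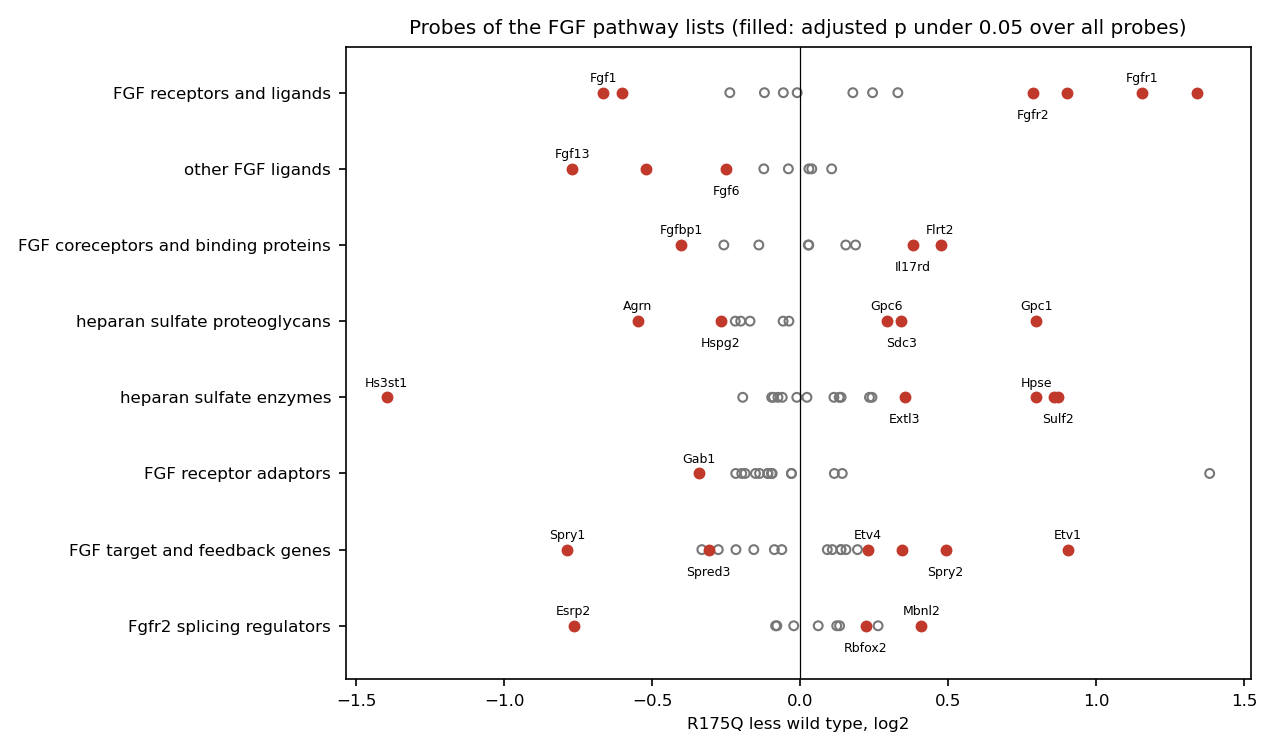
Difference R175Q less wild type (horizontal axis, log2) for every fitted probe of the FGF receptors and ligands and of the 7 other pathway lists; each circle is 1 probe, filled where the adjusted p over all probes was under 0.05. Probes lie on both sides of 0 in every list, from Hs3st1 at −1.40 to Fgfr1 at 1.34 among the filled ones, and the open circle at 1.38 is Sos2, with an SE of 0.96.

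Some markers of cell types differed between the groups. Of the 7 fitted mesenchymal or fibroblast markers, 4 rose (Col1a2, Col3a1, Dcn and Pdgfrb) and the others did not pass. Of all fitted probes 8.92% passed as higher and 9.73% as lower. The summed background-subtracted Cy3 intensity of the mesenchymal or fibroblast markers was 2450 to 3033 in R175Q and 1366 to 1628 in wild type. Of the 7 fitted epithelial markers, 3 fell, Krt7, Krt8 and Krt19, and the others did not pass. The epithelial sums overlapped, with 294700 to 379100 in R175Q and 358200 to 421500 in wild type. Fewer cells of a type and less RNA per cell cannot be told apart in such samples, and the part of these markers in the differences of Fgfr1, Fgfr2 and Fgf1 was not tested. Of the other lists, 1 of 7 fitted macrophage markers fell, 1 of 3 fitted endothelial markers rose, and the 1 fitted adipocyte marker fell, while the other 4 adipocyte markers were not well above background on any array.

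The brightest Fgfr1 probe, A_55_P2057777, was set against all other fitted probes across the 8 arrays, where its pattern is mainly the difference between the groups. Its r with the other Fgfr1 probe that passed, A_55_P1967022, was 0.997. Members apart, the 5 genes with the highest Pearson r were Dnaja4, a chaperone partner (0.998), Cd28, a co-stimulatory receptor of T cells (0.996), Eml2, a microtubule-associated protein (0.996), Etv1 (0.995) and Apol9a (0.995). In all 1152 fitted probes had an r of at least 0.9, and these values share the arrays and the reference. Their differences were 0.78 ± 0.08 for Dnaja4, 1.28 ± 0.09 for Cd28, 0.95 ± 0.10 for Eml2 and 0.86 ± 0.09 for Apol9a, all smaller than that of the Fgfr1 probe itself.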

How the data were processed

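Expression was measured on 8 two-colour Agilent arrays. Per the labels' protocols, input RNA was 1 to 2.5 ng, amplification had 2 rounds and 5 µg was labelled; the reference is called mouse in 1 field and human in the protocol, and the material microdissected although the cells were cultured. Neither conflict could be settled. Agilent Feature Extraction 9.5.3.1, per the file headers, wrote the deposited spot intensity values, the local background and a log10 ratio of Cy5 over Cy3. The authors' deposited value table is on a log2 scale with the sample over the reference, by its values against the scanner's ratio (r 0.901 to 0.941, slope 0.657 to 0.751 across probes); its scaling and centring are not given in the sources used here, and its medians were 0.0585, 0.0562, 0.0607 and 0.0546 for R175Q and 0.0524, 0.0617, 0.0592 and 0.0556 for wild-type replicates 1 to 4.

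Mean intensities less the median local background were corrected by normexp with an offset of 50, then by loess within each array (limma 3.58.1, R 4.3.3). The background mean and SD given to normexp were the median and the scaled median absolute deviation of the 153 negative control spots. Of 39429 probes, 22971 passed the scanner's background test in Cy3 on 4 or more arrays, and 122 with unreliable values were left out. Each of the 22849 others was fitted on its own with lmFit and eBayes (two-sided) and Benjamini-Hochberg adjustment at 0.05. The number of arrays limits the precision. Procedures were tested on simulated data.

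Alternatives changed the background, the scaling, the filter, the summary of probes, the weights, the blocks and the arrays. Quantile normalization of brightness leaves ratios as they are. Named genes were all members, Shc1, up to 4 genes with the lowest p of each pathway list, and the 5 most like Fgfr1. The members, the lists and the background setting were chosen with earlier results of these data known. The coordinates are those of the files.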

Additional observations from a re-analysis of the deposited data

Results flagged for a closer look

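Of 70 groups of 4 arrays checked for the member and named pathway probes, 8 had a highest or lowest array whose gap to the next, as a share of the group's range, was above Dixon's critical value; chance gives about 1 in 20. In 4 it was wild-type replicate 3. Fgfr1 A_55_P1967022 was at −1.94 there and at −2.36 to −2.32 in the other 3 wild-type samples. Fgfrl1 was at −2.07 against −2.33 to −2.32. Fgf1 A_52_P538673 was at 0.95 against 1.31 to 1.36. Fgf7 was at −6.49 against −6.09 to −6.01. Fgfr1, Fgfrl1 and Fgf1 in this array lay on the side of the R175Q samples and Fgf7 on the opposite side.

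The other 4 were spread over 3 arrays. In R175Q replicate 3, Fgf13 was at 2.32 against 2.22 to 2.23 and Sdc3 at 0.96 against 1.25 to 1.30. Hpse was at −0.27 in R175Q replicate 4 against −0.61 to −0.56, and Esrp2 at 2.78 in wild-type replicate 1 against 2.63 to 2.66.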

How the results depend on the processing

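The fit gave 4261 probes past the threshold, 6 of them members and 26 in the other pathway lists. Normexp fitted to all spots gave 912, 2 and 6, and, when slides were also a fixed block, 1, 0 and 0 (limma; 2624, 2 and 10 at an unadjusted p under 0.05). Array weights gave 8714, 10 and 41. The brightest probe of each gene, or the mean of its probes, left 3 members called, since each gene then counts once. Leaving out 1 array gave 2970 to 5221 probes, 6 to 7 members and 19 to 29 list probes. Il17rd reversed with normexp fitted to all spots, to −0.21, and to −0.27 with slide as a block too. Median centring gave 2166 higher and 1510 lower (58.9% higher) beside 2038 and 2223 (47.8%). The labels' replicate numbers were not taken as pairs: same-numbered deviations correlated by 0.30, 0.017, 0.55 and 0.12, and R175Q replicate 2 correlated best with wild-type replicate 1. The replicate block gave 5109 probes, 8 members (Fgf7 and Fgf18 A_55_P2211319 besides the 6) and 30 list probes.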
